A study of Mus musculus with 15 samples.

Results

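Levels of 8 interferon-stimulated genes were examined in the posterior eyecups of mice carrying the FUN025 mutation of Tmem135, a gene of a multipass membrane protein. The genes were Ifit1, Ifit3, Isg15, Irf7, Stat2, Oasl2, Bst2 and Usp18, chosen by name as widely used readouts of interferon signalling, and they make up 8 of the 55421 genes counted. All 8 were found by symbol and passed the filters on low variance and low counts that left 18979 genes for testing. Eyecups without the neural retina, which hold the retinal pigment epithelium (RPE), choroid and sclera, were taken from 4 wild-type (WT), 6 heterozygous (Tmem135 FUN025/+) and 5 homozygous (Tmem135 FUN025/FUN025) mice on the C57BL/6J background. All mice were 2.5 months old, none was treated, and 1 library was made for each mouse from its pooled eyecups. Mice of both sexes were used and the sex of each is not labelled. The paper lists ratios of males to females that differ between the genotypes. Sex was not in the fit, so its part was not tested.

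Type I interferons signal through the receptor IFNAR and the kinases JAK1 and TYK2 to a complex that contains STAT2 and IRF9, which binds interferon-stimulated response elements in the promoters of its target genes. The targets include antiviral effectors (Ifit1, Ifit3, Isg15, Oasl2, Bst2), components of the pathway that are themselves induced (Stat2, Irf7), and a feedback inhibitor (Usp18). In the eye, microglia, macrophages, endothelium and the RPE can all respond to interferon, and many of these genes keep a low tonic level of expression without infection.

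The promoter windows of 5 of these genes hold the core letters of the interferon-stimulated response element. RefSeq windows on GRCm38.p6, running from 250 bases before to 50 bases after the transcript start, were searched on both strands for this core, GAAANNGAAA. Windows were read for 7 of the 8 genes, all but Usp18. The motif was present in 5 of these 7 (71.4%), against 1131 of 32851 windows of the same length over all promoters (3.44%). Among the other listed interferon-stimulated effectors it was in 32 of 84 windows (38.1%). Counted by gene, with any window of a gene enough, it was in 29 of 63 effectors (46.0%) and 3.99% of all genes with a window. The stretches that hold the matches are given below for the 5 genes and for Ifit3b, the near-identical neighbour of Ifit3, because they show the feature that these genes have in common. Each is written 5′ to 3′ on the strand of the gene with the matched letters in capitals, which are read as the reverse complement in Stat2 and the Ifit genes.
Isg15 (chr4:156200855-156200916, minus strand): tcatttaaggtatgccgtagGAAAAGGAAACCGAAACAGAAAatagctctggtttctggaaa
Bst2 (chr8:71537567-71537622, minus strand): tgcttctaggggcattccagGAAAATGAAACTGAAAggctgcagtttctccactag
Stat2 (chr10:128270256-128270305, plus strand): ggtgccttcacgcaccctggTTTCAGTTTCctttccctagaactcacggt
Ifit3 (chr19:34583353-34583436, plus strand): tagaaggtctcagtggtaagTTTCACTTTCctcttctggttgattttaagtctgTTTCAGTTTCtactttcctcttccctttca
Ifit3b (chr19:34607749-34607832, plus strand): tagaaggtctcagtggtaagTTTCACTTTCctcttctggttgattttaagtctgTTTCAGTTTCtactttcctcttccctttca
Ifit1 (chr19:34640765-34640833, plus strand): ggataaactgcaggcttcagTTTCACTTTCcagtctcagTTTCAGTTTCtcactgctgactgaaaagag
None of these stretches overlapped an annotated exon. Isg15 held 3 overlapping matches and Bst2 held 2 overlapping matches, whereas the 2 matches in Ifit1 and in Ifit3 were separate and Stat2 held 1. The stretch printed for Ifit3b was letter for letter that of Ifit3 and began its first match 188 bases before the start site, against 156 in Ifit3. No match was found in the windows of Irf7 and Oasl2. The gamma-activated site core TTCNNNGAA was found in 1 of the 7 windows, that of Bst2, where it overlapped a response element match, and in 8.3% of all windows. A match describes the letters in a window and not a site that was bound.

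**Figure D1:**
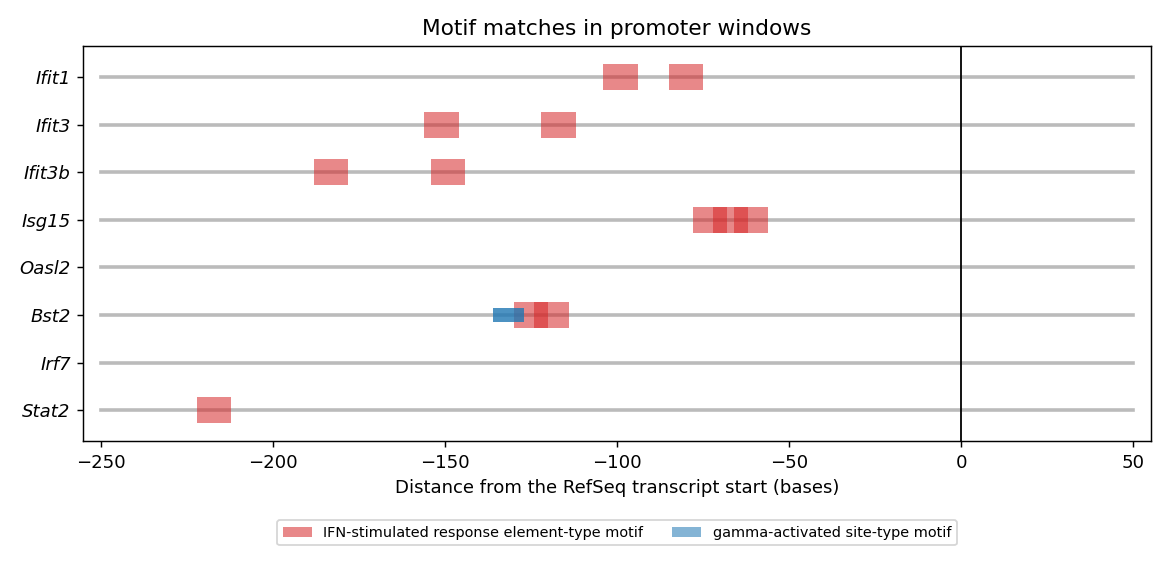
Positions of motif matches in the promoter windows of 7 of the genes and of Ifit3b. The x axis is the distance in bases from the RefSeq transcript start, each grey line is 1 window, and red and blue boxes mark the 2 motifs; overlapping boxes appear darker. Isg15 shows 3 overlapping matches, and Irf7 and Oasl2 show none.

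Total counts were 18094977 to 20029919 in WT libraries, 10903183 to 13456349 in FUN025/+ libraries and 11053535 to 15038383 in FUN025/FUN025 libraries. Every WT library was deeper than every mutant library and the labels name no batch, so depth or a batch shared by the WT mice cannot be told apart from genotype. A level of 3 counts corresponded to 0.15 to 0.282 CPM (counts scaled to a common library size by TMM), a limit set by counting error alone, and the 8 genes had between 69 and 1799 counts in each library. Tmem135 itself was at 64.0 ± 2.99 (SD, n = 4), 75.0 ± 7.30 (n = 6) and 88.3 ± 4.57 CPM (n = 5) in WT, FUN025/+ and FUN025/FUN025 eyecups, and gene counts do not read the mutated base. The summed RPE markers were at 18390 to 23970 CPM in all 15 libraries, while 8 rod markers summed to 83.1 to 2175 CPM although the neural retina had been removed, with medians of 544 CPM in WT, 142 CPM in FUN025/+ and 192 CPM in FUN025/FUN025 libraries. In bulk tissue, fewer cells of a type and less RNA per cell cannot be told apart.

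Between genes, levels were compared per kilobase of exon. In WT eyecups Bst2 was highest at 69.0 ± 9.81 CPM per kb (n = 4), followed by Ifit3 at 51.5 ± 3.26 CPM per kb, and their ranges did not overlap. Isg15 at 12.1 ± 3.23 and Stat2 at 11.7 ± 1.20 CPM per kb differed by less than their spread. Ifit1 (6.48 ± 1.63), Oasl2 (5.98 ± 1.31), Usp18 (5.01 ± 0.900) and Irf7 (4.05 ± 0.875 CPM per kb) followed, and the ranges of neighbours among these 4 overlapped. In FUN025/FUN025 eyecups Bst2 (74.3 ± 7.16 CPM per kb) and Ifit3 (66.0 ± 5.08 CPM per kb) were again highest (n = 5), with ranges that overlapped.

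**Figure D2:**
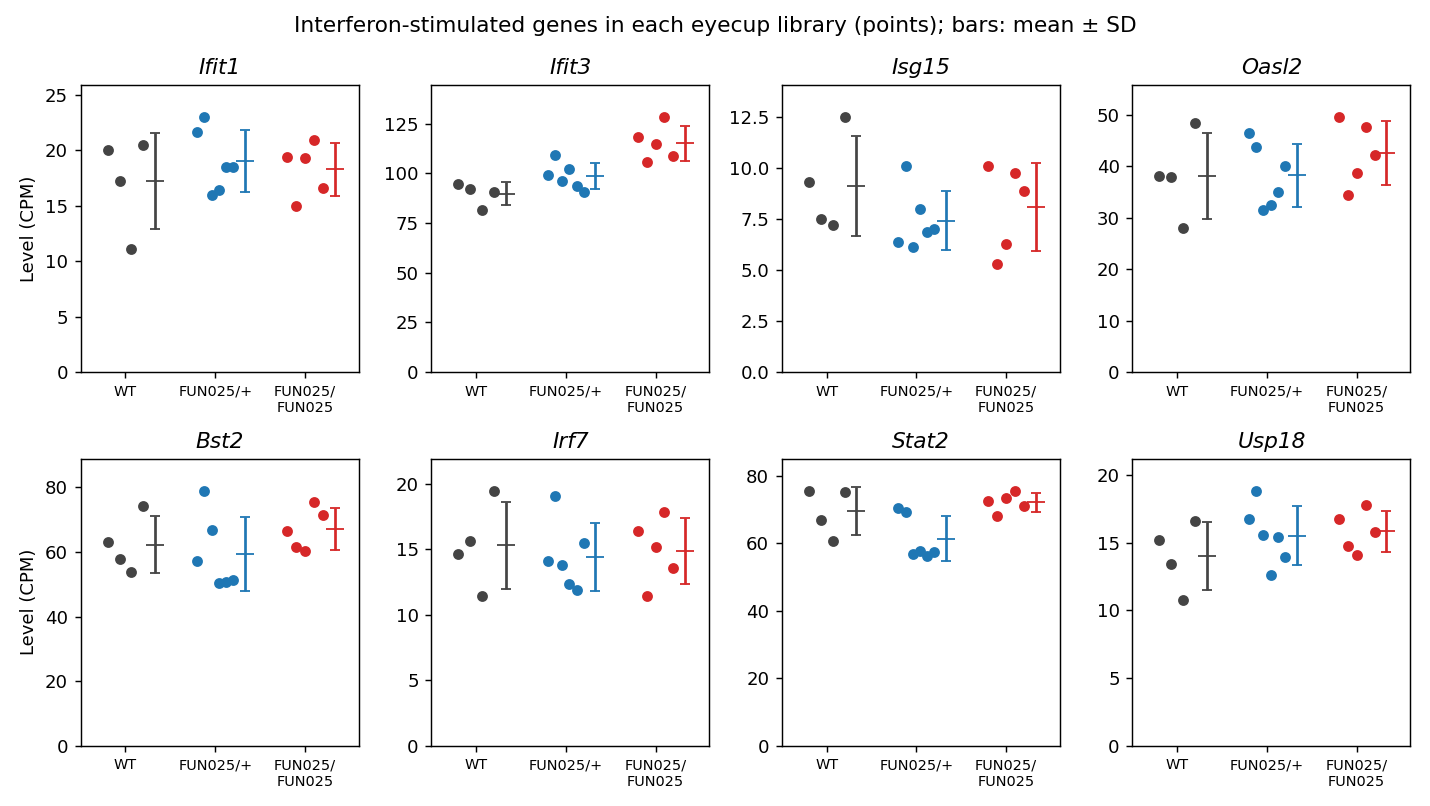
Levels of the 8 genes in CPM (y axis, from 0) in each of the 4 WT, 6 FUN025/+ and 5 FUN025/FUN025 libraries. Points are single mice, and the bars beside them are the mean ± SD. Ifit3 is the gene whose FUN025/FUN025 points (106 to 129 CPM) all lie above its WT points (81.7 to 94.9 CPM).

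The clearest difference between genotypes was in Ifit3, which encodes an antiviral partner protein of IFIT1 and lies on chromosome 19 (ENSMUSG00000074896, GRCm38 19:34583531-34588731) in a cluster of Ifit genes. Its level in the 4 WT libraries was 94.9, 92.1, 81.7 and 90.6 CPM. In FUN025/+ libraries it ran from 90.9 to 109 CPM with a median of 97.7 CPM. In the 5 FUN025/FUN025 libraries it was 118, 106, 115, 129 and 109 CPM. The FUN025/FUN025 values were thus all above the WT values, while the FUN025/+ values overlapped both. Ifit3 was 1.28-fold higher in FUN025/FUN025 than in WT eyecups (95% CI 1.17 to 1.41, log2 fold change 0.36, SE 0.06), and it passed the threshold of 0.05 on the adjusted p (edgeR quasi-likelihood test with Benjamini-Hochberg adjustment, adjusted p = 0.00107). It was the only 1 of the 8 genes to do so, and 14 percent of all 18979 genes were called in this comparison, 7.03 percent as higher. Groups that did not overlap were found for 1 of the 8 genes and for 14.8 percent of all genes. The difference between FUN025/+ and WT was 0.13 (SE 0.06, adjusted p = 0.157) and that between FUN025/FUN025 and FUN025/+ was 0.23 (SE 0.06, adjusted p = 0.126), both on the log2 scale.

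Ifit3 cannot be read apart from its neighbour Ifit3b (ENSMUSG00000062488, 19:34607970-34613401). Of the 31-base stretches in Ifit3 transcripts, 61.8% also occurred in Ifit3b, and how reads that match both genes were counted is not given in the sources used here. Ifit3b was at 36.2 ± 4.27 CPM in WT (n = 4), 41.7 ± 3.06 in FUN025/+ (n = 6) and 50.4 ± 7.70 in FUN025/FUN025 eyecups (n = 5). It was called higher in FUN025/FUN025 than in WT eyecups (log2 fold change 0.48, SE 0.10, adjusted p = 0.00394), with all FUN025/FUN025 values (43.7 to 63.3 CPM) above the WT values (30.9 to 41.0 CPM). The ratio of Ifit3 to Ifit3b was 2.50 ± 0.174 in WT, 2.37 ± 0.207 in FUN025/+ and 2.31 ± 0.169 in FUN025/FUN025 libraries, with ranges that overlapped. With both counted as 1 gene, an alternative added after seeing the data, the log2 difference from WT was 0.39 (adjusted p = 0.000905). The other genes of the cluster, looked at after the result for Ifit3, did not pass the test in any comparison. Ifit2 was at 36.3 ± 3.86, 38.0 ± 2.73 and 39.7 ± 2.67 CPM in WT, FUN025/+ and FUN025/FUN025 eyecups (n = 4, 6 and 5). Ifit1bl1 varied between 5.99 and 67.8 CPM, with a log2 difference of 0.91 between FUN025/FUN025 and WT eyecups and a 95% CI from -0.63 to 2.45.

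Ifit1, which binds viral RNA that lacks the cap methylation of the host (ENSMUSG00000034459, 19:34640871-34650009), was at 20.03, 17.3, 11.1 and 20.5 CPM in the WT libraries. It ran from 16.0 to 23.0 CPM with a median of 18.5 CPM in FUN025/+ libraries. The FUN025/FUN025 libraries had 19.4, 15.01, 19.4, 21.0 and 16.6 CPM. The groups overlapped, with the lowest value of all in WT replicate 3. Its log2 difference from WT was 0.15 in FUN025/+ (95% CI -0.18 to 0.47, adjusted p = 0.56) and 0.09 in FUN025/FUN025 eyecups (95% CI -0.25 to 0.43, adjusted p = 0.756). A share of 10.8% of its 31-base stretches occurred in other genes, mostly in Ifit1bl2.

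Isg15, a ubiquitin-like protein that is joined to other proteins after interferon (ENSMUSG00000035692, 4:156199424-156200818), had the fewest counts of the 8 genes. It was at 9.29, 7.48, 7.19 and 12.5 CPM in WT libraries. FUN025/+ libraries ran from 6.14 to 10.1 CPM with a median of 6.94 CPM. FUN025/FUN025 libraries had 10.1, 5.31, 6.27, 9.78 and 8.89 CPM. All 3 ranges overlapped and spanned 1.64-fold to 1.90-fold within a genotype. The log2 difference from WT was -0.30 in FUN025/+ (95% CI -0.71 to 0.12, adjusted p = 0.336) and -0.17 in FUN025/FUN025 eyecups (95% CI -0.60 to 0.26, adjusted p = 0.619). Without WT replicate 4, the highest of WT, these values were -0.10 and 0.02.

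Oasl2, a member of the oligoadenylate synthetase family (ENSMUSG00000029561, 5:114896936-114912234), was at 38.1, 37.9, 27.98 and 48.4 CPM in WT libraries. FUN025/+ libraries ran from 31.6 to 46.6 CPM with a median of 37.6 CPM. FUN025/FUN025 libraries had 49.7, 34.5, 38.8, 47.6 and 42.2 CPM. The groups overlapped over most of their range. The log2 difference from WT was 0.0096 in FUN025/+ (95% CI -0.32 to 0.33, adjusted p = 0.977) and 0.16 in FUN025/FUN025 eyecups (95% CI -0.18 to 0.50, adjusted p = 0.54).

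Bst2, the tetherin that holds budding virus at the cell surface (ENSMUSG00000046718, 8:71534255-71537456), was at 63.1, 57.8, 53.9 and 74.3 CPM in WT libraries. FUN025/+ libraries ran from 50.5 to 79.0 CPM with a median of 54.4 CPM. FUN025/FUN025 libraries had 66.6, 61.7, 60.2, 75.5 and 71.5 CPM. The highest value of all was in FUN025/+ replicate 2 and the lowest in FUN025/+ replicate 4, so that this genotype enclosed both others. The log2 difference from WT was -0.07 in FUN025/+ (95% CI -0.34 to 0.20, adjusted p = 0.762) and 0.11 in FUN025/FUN025 eyecups (95% CI -0.18 to 0.39, adjusted p = 0.637).

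Stat2, the transcription factor subunit specific to type I and type III interferon signals (ENSMUSG00000040033, 10:128270559-128292849), was at 75.4, 66.8, 60.6 and 75.1 CPM in WT libraries. FUN025/+ libraries ran from 56.3 to 70.5 CPM with a median of 57.55 CPM. FUN025/FUN025 libraries had 72.5, 68.0, 73.4, 75.6 and 71.1 CPM. In 4 of the 6 FUN025/+ libraries the level was below every WT and FUN025/FUN025 value, and the other 2 overlapped both groups. Stat2 was 0.18 lower in FUN025/+ than in WT eyecups on the log2 scale (95% CI -0.34 to -0.02, adjusted p = 0.119), which did not pass the threshold. Without FUN025/+ replicate 1 it did (-0.22, adjusted p = 0.0486). The difference between FUN025/FUN025 and FUN025/+ was 0.23 (95% CI 0.08 to 0.38, adjusted p = 0.297) and that between FUN025/FUN025 and WT was 0.05 (95% CI -0.11 to 0.22, adjusted p = 0.691).

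Irf7, which drives later waves of interferon alpha expression (ENSMUSG00000025498, 7:141262706-141266481), was at 14.6, 15.6, 11.4 and 19.5 CPM in WT libraries. FUN025/+ libraries ran from 11.9 to 19.0 CPM with a median of 13.9 CPM. FUN025/FUN025 libraries had 16.4, 11.4, 15.2, 17.8 and 13.5 CPM. The 3 groups covered nearly the same range. The log2 difference from WT was -0.08 in FUN025/+ (95% CI -0.40 to 0.24, adjusted p = 0.769) and -0.04 in FUN025/FUN025 eyecups (95% CI -0.37 to 0.30, adjusted p = 0.9). Irf7 overlaps Phrf1 on the opposite strand, and the strand setting of the counting is not given in the sources used here, so reads of the overlap cannot be told apart. Of the 31-base stretches of Irf7, 0.4% occurred in Phrf1 on either strand.

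Usp18, which removes ISG15 from proteins and dampens signalling at the interferon receptor (ENSMUSG00000030107, 6:121245906-121270917), was at 15.2, 13.5, 10.7 and 16.6 CPM in WT libraries. FUN025/+ libraries ran from 12.6 to 18.9 CPM with a median of 15.5 CPM. FUN025/FUN025 libraries had 16.8, 14.8, 14.1, 17.8 and 15.8 CPM. The groups overlapped, with the lowest value in WT replicate 3. The log2 difference from WT was 0.15 in FUN025/+ (95% CI -0.10 to 0.41, adjusted p = 0.427) and 0.18 in FUN025/FUN025 eyecups (95% CI -0.08 to 0.44, adjusted p = 0.369). They were 0.05 and 0.08 without WT replicate 3, and 0.25 and 0.28 without WT replicate 4. A long noncoding RNA, Gm44148, overlaps it on the opposite strand and holds 3.5% of its 31-base stretches.

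Taking the 8 genes side by side, 0 were called between FUN025/+ and WT eyecups by edgeR's quasi-likelihood test, against 13.7 percent of all genes. At an unadjusted p under 0.05, 2 of them passed (Ifit3 and Stat2, in opposite directions), against 28.8 percent of all genes. Groups that did not overlap were found for 0 of the 8 and for 10.9 percent of all genes. Of the 8 log2 differences 4 were above 0 and 4 below, with a median of -0.03, where the median over all genes was -0.002. Between FUN025/FUN025 and WT eyecups, 1 was called, against 14 percent of all genes. At an unadjusted p under 0.05 there, 1 passed, against 28.6 percent of all genes. In this comparison 6 differences were above 0 and 2 below, and the median was 0.10 (all genes -0.007). These comparisons share the WT mice, and the medians moved with them: they were -0.12 and 0.03 without WT replicate 3 and 0.10 and 0.20 without WT replicate 4. Without WT replicate 4 the genes called over the whole table also fell in number, to 1433 and 1519 from 2600 and 2666. Between FUN025/FUN025 and FUN025/+ eyecups 0 of the 8 were called, against 0.522 percent of all genes, and 2 passed at an unadjusted p under 0.05 (6.23 percent of all genes). None of the 8 was without overlap there, against 1.12 percent of all genes. In that comparison 7 differences were above 0 and the median was 0.14 (all genes -0.004). Besides Ifit3 and Stat2, the log2 differences were -0.06 for Ifit1, 0.13 for Isg15, 0.15 for Oasl2, 0.18 for Bst2, 0.04 for Irf7 and 0.03 for Usp18, with adjusted p-values of 0.995 to 1. DESeq2's Wald test called 1 of the 8 there, Ifit3 (0.23, adjusted p = 0.0399).

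**Figure D3:**
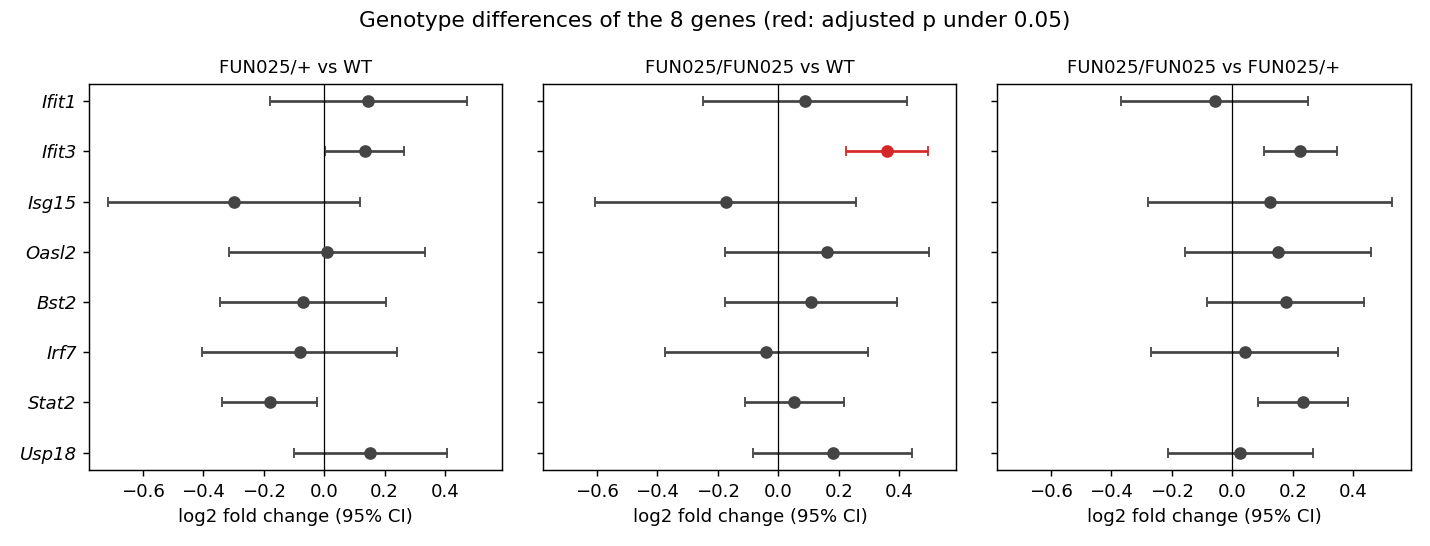
log2 fold changes (x axis) of the 8 genes (y axis) in the 3 comparisons of genotypes, as points with 95% confidence intervals from the edgeR fit over all 15 mice. The interval in red, for Ifit3 between FUN025/FUN025 and WT eyecups (0.22 to 0.49), is the one that passed the adjusted threshold.

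The levels of these genes differed between mice of 1 genotype, and did so in parallel. For all of them but Ifit3 and Stat2, the SD of the log2 level within genotypes ran from 0.20 for Usp18 to 0.34 for Isg15. It was larger for each gene than any of its differences between genotypes in the fit over all 15 mice. Some differences were larger with a mouse left out, such as 0.25 and 0.28 for Usp18 without WT replicate 4. For Ifit3 and Stat2 the SD was 0.10 and 0.13. WT replicate 3 had the lowest WT level of all 8 genes and WT replicate 4 the highest level of 6. FUN025/+ replicate 2 was the highest of its genotype for 6 genes, as was FUN025/FUN025 replicate 4, and FUN025/FUN025 replicate 2 was the lowest for 6. The median deviation of the 8 genes from their genotype mean was -0.33 in WT replicate 3, 0.28 in WT replicate 4, 0.29 in FUN025/+ replicate 2, -0.195 in FUN025/FUN025 replicate 2 and 0.175 in FUN025/FUN025 replicate 4 on the log2 scale. Over all genes the median deviation of each of the 15 libraries was between -0.008 and 0.007. The biological coefficient of variation had a median of 15% over the 8 genes and 11.2% over all genes tested, and ran from 7.77% for Ifit3 to 21.2% for Isg15.

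After centring each gene on its genotype mean, the log2 CPM of all 28 pairs of these genes correlated positively over the 15 libraries. Pearson's r had a median of 0.70 and ran from 0.51 for Isg15 with Stat2 to 0.87 for Ifit1 with Oasl2. The points share their libraries, so that depth and tissue make-up of a mouse enter both values of a pair. With all other genes tested, the median r of each of the 8 was between -0.01 and 0.01, and 3.06% (Ifit1) to 8.09% (Bst2) of those genes had an r over 0.5. All 28 pairs were positive within each genotype too, with a median r of 0.86 over 4 WT, 0.61 over 6 FUN025/+ and 0.76 over 5 FUN025/FUN025 libraries. Leaving out any 1 library left the median r between 0.61 and 0.77. Without both WT replicate 3 and WT replicate 4 it was 0.64, with 28 pairs positive.

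**Figure D4:**
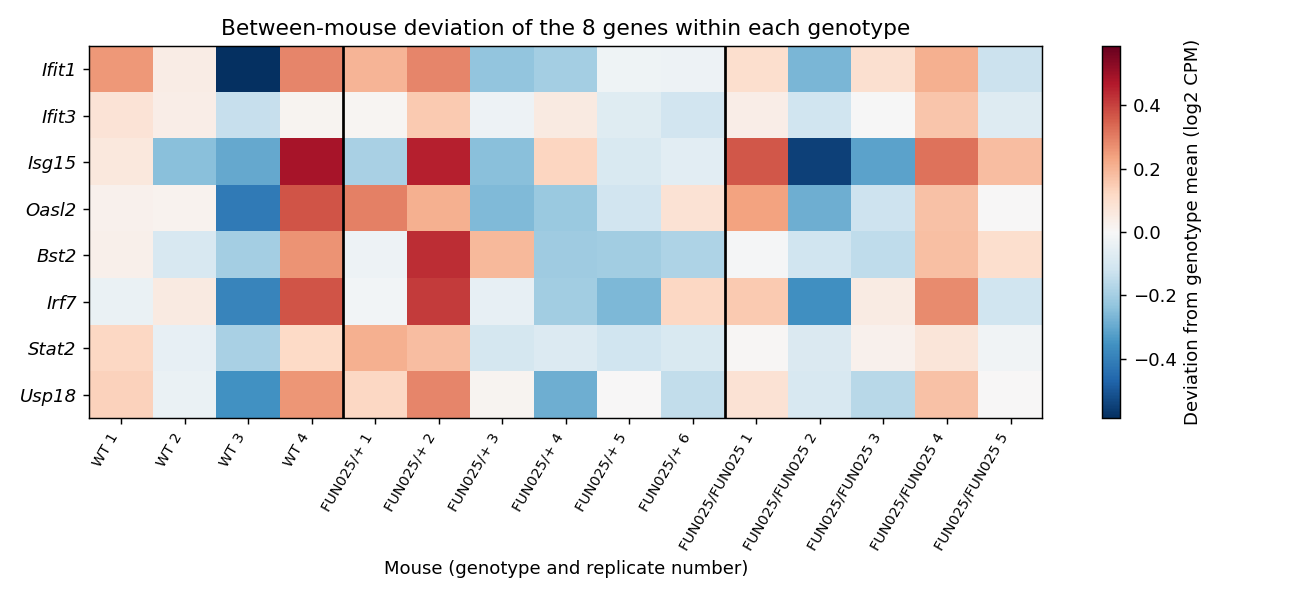
Deviation of each gene (rows) in each mouse (columns) from the mean of its genotype, in log2 CPM (colour scale, red above and blue below the mean). Vertical lines divide WT, FUN025/+ and FUN025/FUN025 mice. The column of WT replicate 3 is blue for all 8 genes and that of FUN025/+ replicate 2 is red for all 8.

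Genes outside the 8 were ranked by their likeness to this shared pattern, as the r over 15 libraries with the mean of the 8 z-scored genes, each centred on its genotype. Among the most alike were Rtp4 (r = 0.904), Brpf1 (0.863), Glipr2 (0.86), Gbp3 (0.859), Cort (0.848), Pcdhb3 (0.848) and Ifi27 (0.846). Rtp4, Gbp3 and Ifi27 are known interferon-induced genes and were on the pathway lists. Brpf1 encodes a chromatin reader, Cort a neuropeptide and Pcdhb3 a protocadherin. Over lists, 44 of 77 other interferon-stimulated effectors had an r over 0.5 with this pattern (57.1%), as did 8 of 16 nucleic acid sensors and adaptors (50%) and 3 of 12 kinases and transcription factors (25%). Of the 10 negative regulators 2 did (20%), and of the 6 interferon receptors 0 did. Of the other genes tested, 1028 of 18971 had an r over 0.5 (5.42%).

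Markers of immune and other cell types were measured in the same libraries. The 12 macrophage and microglia markers summed to 563 to 720 CPM in WT, 549 to 805 CPM in FUN025/+ and 637 to 711 CPM in FUN025/FUN025 libraries, and all 12 were above 1 CPM on average in each genotype. FUN025/+ replicate 2 (805 CPM) and WT replicate 4 (720 CPM) had the highest sums of their genotypes. WT replicate 3, the lowest WT library for all 8 genes, had 569.5 CPM, above WT replicate 2 (563 CPM). FUN025/FUN025 replicate 4, where 6 of the 8 genes were highest, had 651 CPM, the second lowest of its genotype. FUN025/FUN025 replicate 2, where 6 of the 8 genes were lowest, had the lowest sum of its genotype (637 CPM), and also the lowest of the neutrophil and monocyte markers (23.9 CPM). The 9 lymphocyte markers summed to 2.96 to 6.90 CPM, with 8 of 9 under 1 CPM. The 7 neutrophil and monocyte markers together summed to 16.8 to 30.9 CPM over the 15 libraries, and 4 of 7 were under 1 CPM on average in each genotype. They were lowest of WT in WT replicate 3 (17.8 CPM) and highest of their genotypes in WT replicate 4 (26.75 CPM) and FUN025/+ replicate 2 (27.7 CPM), while FUN025/FUN025 replicate 4 (26.4 CPM) was below the median of its genotype (27.2 CPM). The 6 plasmacytoid dendritic cell markers, of which Bst2 is 1, summed to 243 to 339.5 CPM and were highest of their genotypes in WT replicate 4 (339.5 CPM), FUN025/+ replicate 2 (292.5 CPM) and FUN025/FUN025 replicate 4 (304 CPM), and lowest of WT in WT replicate 3 (273.5 CPM). With Bst2 left out, a sum added after seeing the data, WT replicate 4 (265 CPM) and FUN025/FUN025 replicate 4 (228 CPM) were still highest of their genotypes. FUN025/+ replicate 2 (213.5 CPM) was then just below FUN025/+ replicate 4 (213.7 CPM), and WT replicate 3 (219.7 CPM) was above WT replicate 1 (216 CPM). Most of that sum was Tcf4 (172 to 240 CPM), a transcription factor that many other cell types also express. Macrophage markers called between FUN025/FUN025 and WT eyecups numbered 1 of 12, as higher, against 7.03 percent of all genes. A single called marker in a list this short cannot be set apart from such a share. Endothelial markers called there numbered 5 of 8, as lower, against 7.02 percent of all genes. Their sums were 1065 to 1246 CPM in WT and 774 to 962 CPM in FUN025/FUN025 libraries. In FUN025/+ eyecups 2 of the 8 endothelial markers were called as lower, against 6.61 percent of all genes. Striated muscle markers were called lower for 3 of 8 in FUN025/+ and 2 of 8 in FUN025/FUN025 eyecups, with sums of 3291 to 6631 CPM in WT, 1720 to 4944 CPM in FUN025/+ and 2863 to 3769 CPM in FUN025/FUN025 libraries. Of the plasmacytoid dendritic cell and of the Schwann cell markers 1 each was lower in both mutant genotypes, and 0 markers of the other lists (RPE, rods, lens, fibroblasts, melanocytes, lymphocytes, neutrophils and monocytes) were called by edgeR against WT. The part of these cells in the levels of the 8 genes was not tested.

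The other genes of the pathway were taken from lists of 144 names, of which 143 were in the count tables and 121 were tested. Over all genes, 7.09 percent were called higher and 6.61 percent lower in FUN025/+ than in WT eyecups, and 7.03 and 7.02 percent in FUN025/FUN025 eyecups. Between the mutant genotypes 0.522 percent were called in either direction and 6.23 percent had an unadjusted p under 0.05. Of 21 interferon genes, 0 passed the filters. Ifnb1 had 1 count over all 15 libraries, Ifng 8 and Ifnz 10, and no interferon had more than 2 counts in a library. At this depth such levels lie at or under the floor of 3 counts, and a lower expression than that is not detectable. The 6 receptor genes were expressed and 0 were called in any comparison. Ifnar1, a chain of the type I receptor, was at 70.2 ± 1.34, 69.6 ± 3.91 and 68.9 ± 3.77 CPM in WT, FUN025/+ and FUN025/FUN025 eyecups (n = 4, 6 and 5). Ifngr1, a chain of the receptor of interferon gamma, was at 65.15 ± 2.92, 62.8 ± 2.43 and 62.2 ± 6.69 CPM.

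Among 12 kinases and transcription factors, Stat3, which transmits interleukin 6 and related signals, rose in FUN025/FUN025 eyecups. It was at 131 ± 4.62 CPM in WT, 129.6 ± 6.87 in FUN025/+ and 171 ± 9.18 in FUN025/FUN025 eyecups, with a log2 difference from WT of 0.38 (SE 0.05, adjusted p = 6.04e-05) and from FUN025/+ of 0.40 (SE 0.05, adjusted p = 6.4e-05). The FUN025/FUN025 values (159 to 184 CPM) did not overlap either other group. Batf2, an interferon-inducible factor of the AP-1 family, was higher than in WT in FUN025/+ (0.37, SE 0.09, adjusted p = 0.0117) and FUN025/FUN025 eyecups (0.38, SE 0.09, adjusted p = 0.0135). Irf9, the DNA-binding subunit of the complex that holds STAT2, fell by 0.30 in FUN025/+ eyecups (SE 0.08, adjusted p = 0.0125) and was -0.19 from WT in FUN025/FUN025 eyecups (adjusted p = 0.108). Stat3 and Batf2 were called in each of the 15 fits that left out 1 library, and Irf9 was not called without WT replicate 4 (adjusted p = 0.0693). The median of the list was -0.06 in FUN025/+ and -0.002 in FUN025/FUN025 eyecups, and -0.023 and 0.067 without WT replicate 4.

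Of 16 nucleic acid sensors and adaptors, 1 was lower and 0 higher in FUN025/+ than in WT eyecups (6.25%), while 2 rose and 1 fell in FUN025/FUN025 eyecups (18.8%). Ddx58, which encodes the RNA sensor RIG-I, was 0.23 higher (adjusted p = 0.0338) and Tlr3, the endosomal receptor of double-stranded RNA, 0.26 higher (adjusted p = 0.0169) in FUN025/FUN025 than in WT eyecups on the log2 scale. Ticam1, the adaptor of TLR3, fell by 0.27 in both mutant genotypes (adjusted p = 0.0379 in FUN025/+ and 0.0412 in FUN025/FUN025). The FUN025/+ values of Ddx58 (0.195, adjusted p = 0.0554) and Tlr3 (0.197, adjusted p = 0.057) stood just outside the threshold, and both were called there with upper-quartile scaling (adjusted p = 0.0471 and 0.0468), by DESeq2's Wald test (0.0422 and 0.0444) and by limma-voom (0.0499 and 0.0485). Between FUN025/FUN025 and FUN025/+ eyecups the log2 difference was 0.03 for Ddx58 and 0.07 for Tlr3, each with an adjusted p of 1. Tlr3 was not called between FUN025/FUN025 and WT eyecups without WT replicate 3 (adjusted p = 0.053), Ddx58 was called in 10 of 15 fits that left out 1 library, and Ticam1 in 8 and 7 of 15. The median of the list was 0.045 between FUN025/FUN025 and WT eyecups, with a range from 0.001 without FUN025/FUN025 replicate 5 to 0.076 without WT replicate 1. Between the mutant genotypes edgeR and DESeq2 called 0 of 16, with 1 at an unadjusted p under 0.05 in edgeR, and the most abundant, Trim25, which activates RIG-I, was at 77.9 ± 7.90 CPM in FUN025/+ and 78.8 ± 5.97 CPM in FUN025/FUN025 eyecups (n = 6 and 5).

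Of 77 other interferon-stimulated effectors tested, 6 rose and 1 fell between WT and FUN025/FUN025 eyecups, a share of 9.09% that stood below the 14 percent of all genes, with a median log2 difference of 0.06 that was 0.019 without WT replicate 3 and 0.124 without WT replicate 4. Ifit3b was 1 of the 6, and with Ifit3 and Ifit3b counted as 1 gene 5 of 76 rose. With upper-quartile scaling and by DESeq2's Wald test 8 of 77 did. Besides Ifit3b, the genes that rose were Ddx60 (0.59, adjusted p = 0.00745), an RNA helicase, Eif2ak2 (0.34, adjusted p = 0.0106), the kinase PKR that halts translation, Herc6 (0.34, adjusted p = 0.0252), an ISG15 ligase of mice, Samd9l (0.25, adjusted p = 0.0474) and Parp9 (0.24, adjusted p = 0.0149). Helz2, a helicase that also acts as a coactivator of nuclear receptors, fell by 0.31 (adjusted p = 0.0233). Ddx60 went from 11.7 ± 0.445 CPM in WT to 15.1 ± 2.01 in FUN025/+ and 17.55 ± 3.70 CPM in FUN025/FUN025 eyecups (n = 4, 6 and 5), and its FUN025/+ and FUN025/FUN025 values lay above all WT values. In FUN025/+ eyecups 0 of the 77 were higher and 2 lower than in WT, Daxx (-0.26, adjusted p = 0.0108) and Trafd1 (-0.21, adjusted p = 0.037), with a median of -0.01 that ran from -0.085 without FUN025/+ replicate 2 to 0.062 without WT replicate 4. Leaving out 1 library at a time, Ddx60, Eif2ak2, Ifit3b, Parp9 and Daxx were called in 15 of 15 fits, Helz2 in 13, Herc6 in 12, Trafd1 in 8 and Samd9l in 4, so that 4 to 7 genes were higher in FUN025/FUN025 eyecups. Between the mutant genotypes edgeR called 0 of 77, with 5 at an unadjusted p under 0.05 (6.23 percent of all genes) and a median of 0.07. The 2 most abundant, Lgals3bp (199 ± 21.3 and 245 ± 22.6 CPM) and Ly6e (164 ± 28.3 and 166 ± 12.7 CPM in FUN025/+ and FUN025/FUN025 eyecups, n = 6 and 5), had adjusted p-values of 0.126 and 1. Lgals3bp was called higher in FUN025/FUN025 eyecups by DESeq2's Wald test (0.30, adjusted p = 0.0304) and by edgeR without FUN025/+ replicate 2 (0.35, adjusted p = 0.0273).

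Of 10 negative regulators, 3 were lower and 0 higher in each mutant genotype than in WT (30%). Socs3, the feedback inhibitor of STAT3 and interferon signals, fell by 0.55 in FUN025/+ (SE 0.12, adjusted p = 0.00433) and was -0.34 from WT in FUN025/FUN025 eyecups (adjusted p = 0.0679). Pias4 fell by 0.27 (adjusted p = 0.0241) and 0.32 (adjusted p = 0.0123), and Irf2bp2, a corepressor of IRF2, by 0.28 (adjusted p = 0.00769) and 0.26 (adjusted p = 0.0163). Irf2bp1 fell by 0.20 in FUN025/FUN025 eyecups (adjusted p = 0.0339). When 1 library was left out, Socs3 was called in 15 of 15 fits, Pias4 in 12 and 14, Irf2bp2 in 15 and 12 and Irf2bp1 in 7. Without WT replicate 4, 0 of the 10 were called in FUN025/FUN025 eyecups. The list medians were -0.13 and -0.07. Between the mutant genotypes edgeR and DESeq2 called 0 of 10, with 1 at an unadjusted p under 0.05 in edgeR, and the most abundant, Ptpn11, which encodes the phosphatase SHP2, was at 194 ± 1.84 and 194.5 ± 4.78 CPM.

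**Figure D5:**
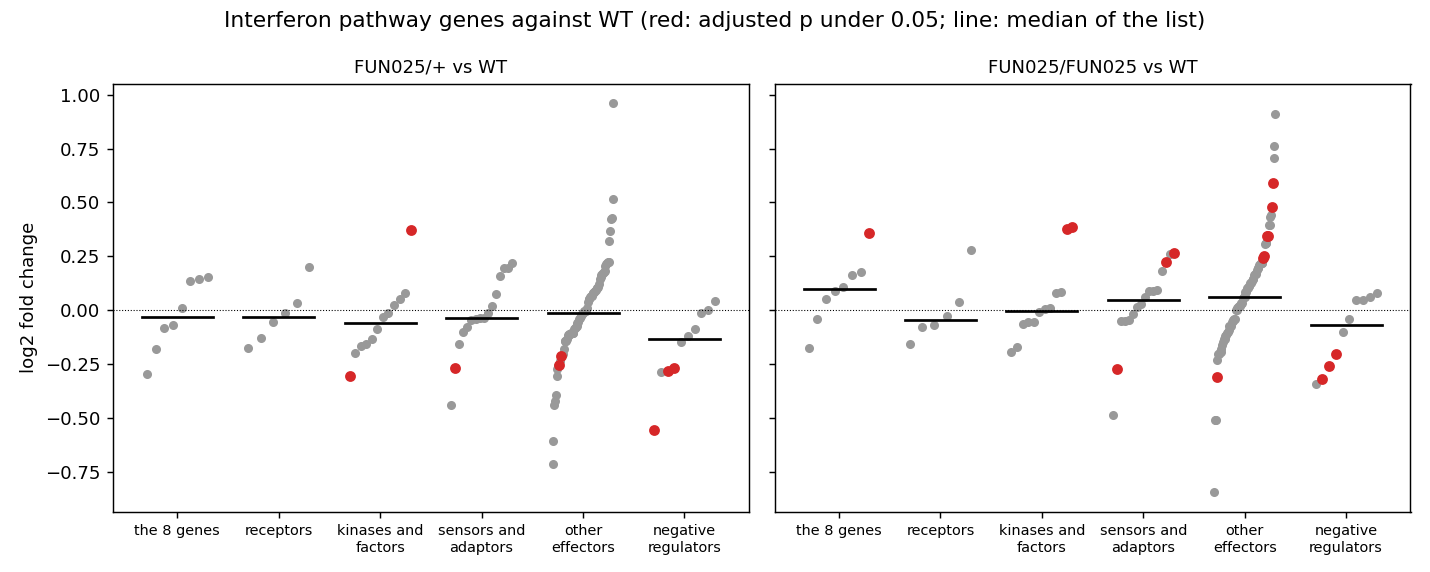
log2 fold changes against WT (y axis) of the 8 genes and of the tested genes of 5 interferon pathway lists, in FUN025/+ (left) and FUN025/FUN025 eyecups (right). Each point is a gene, sorted within its list, red points passed an adjusted p of 0.05, and the line is the median of the list. Medians lie between -0.13 and 0.10.

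The tested genes whose promoter window holds the response element core numbered 471. Of these, 24 were called higher and 32 lower in FUN025/+ than in WT eyecups (11.9%), against 13.1% of 12223 tested genes whose windows do not hold it. Between FUN025/FUN025 and WT eyecups the counts were 29 higher and 27 lower (11.9%), against 13.2%. The median log2 differences of the genes with the core were -0.003 and -0.001.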

How the data were processed

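RNA from the posterior eyecups of 15 mice was selected with oligo(dT), made into NEBNext Ultra libraries and read from both ends on an Illumina HiSeq. The submitters' processing notes name FastQC 0.11.8, Trimmomatic 0.39, HISAT2 2.1.0, SAMtools, featureCounts 2.0.0 and GRCm38, while the strand setting and annotation release are not given in the sources used here. The deposited tables of the authors hold the number of reads per Ensembl gene in each library as raw counts, with no normalization. Symbols and positions came from GENCODE M21, which holds 55240 of the 55421 genes. A variance filter took out the lowest 15% of genes, leaving 47108, and filterByExpr then left 18979, since the low-count threshold of the study is not stated. Counts were scaled by TMM (edgeR 4.0.16, factors 0.976 to 1.02), and all 15 mice entered one robust quasi-likelihood fit with genotype as the factor, no covariate, Benjamini-Hochberg adjustment over all genes tested and a threshold of 0.05. CPM used the TMM-scaled totals, and log2 CPM for correlations used a prior count of 2. P-values weigh a difference between genotypes against the spread between mice, each in 1 library. The fit was also run on counts simulated from its own estimates. Genes were drawn independently and without a batch, so that run does not cover correlated genes or a batch.

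The genes and pathway lists were chosen with earlier results of these data known. All 8 genes are named in each comparison. From the lists, genes past the threshold are named (at most 8 per list and comparison) and otherwise the 2 with the highest CPM, together with the 8 genes most like the shared pattern, of which 1 is not reported here. Shared sequence was counted in stretches of 31 bases. Other scalings, tests (DESeq2 1.42.0, limma 3.58.1) and filters, thinning, a replicate block and leaving out each mouse were tried. R 4.3.3 and Python 3.11.15 were used.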

Additional observations from a re-analysis of the deposited data

Results flagged for a closer look

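In 69 sets of values (8 interferon-stimulated genes and 15 other named genes in 3 genotypes), 1 library was sought whose gap to the nearest other was larger than Dixon's 95% critical value allows, which chance alone gives in about 1 of 20 sets. For the 8 genes themselves there was no such library, and for the others there were 7 cases. FUN025/+ replicate 2 was the highest of its genotype for Irf9 (65.0 CPM, the others 49.5 to 54.0) and Tlr3 (37.0 CPM, the others 30.1 to 32.2), and it was also the highest of its genotype for 6 of the 8 genes. FUN025/+ replicate 1 was the highest for Stat3 (143 CPM, the others 125 to 131) and Ifit1bl2 (2.65 CPM, the others at most 1.91) and the lowest for Batf2 (20.3 CPM, the others 25.4 to 27.6). FUN025/FUN025 replicate 4, the highest of its genotype for 6 of the 8 genes, was the highest for Eif2ak2 at 49.9 CPM, where the others were at 41.3 to 42.6. WT replicate 3, the lowest WT library for all 8 genes, was the highest for Ifit1bl1 at 40.2 CPM, where the others were at 7.23 to 10.9.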

How the results depend on the processing

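Ifit3 was higher in FUN025/FUN025 than in WT eyecups and passed the threshold under all 26 alternatives, with log2 differences of 0.32 to 0.39 and adjusted p-values of 6.89e-06 to 0.00537. Of the 624 values of the 8 genes under alternatives, 601 kept their sign and their side of the threshold. Between FUN025/FUN025 and FUN025/+ eyecups, DESeq2's Wald test called 1 of the 8 (Ifit3) and 171 genes in all against 99, and without a filter on low counts 1 of the 8 was called (Ifit3, adjusted p = 0.0457); the cause was not tested. With a mouse left out, the 8 genes gave 0 to 1 calls between FUN025/+ and WT (Stat2, without FUN025/+ replicate 1), and all genes gave 1433 to 2719 calls there, 1519 to 2697 between FUN025/FUN025 and WT and 68 to 106 between the mutant genotypes, the 2 lowest counts against WT being those without WT replicate 4. The sign turned in 20 values, none of them called before or after. With a mouse left out, log2 differences between FUN025/+ and WT ran from -0.0121 to 0.2471 for Ifit1, -0.1929 to 0.0639 for Irf7, -0.1091 to 0.1521 for Oasl2 and -0.1681 to 0.0337 for Bst2. Between FUN025/FUN025 and WT they ran from -0.0646 to 0.1883 for Ifit1, -0.2612 to 0.0231 for Isg15 and -0.146 to 0.1044 for Irf7, and between the mutant genotypes from -0.1064 to 0.0056 for Ifit1, -0.0269 to 0.1357 for Irf7 and -0.0198 to 0.0902 for Usp18. Of the values that kept their sign, those that moved by over 1.5 times ran, between FUN025/+ and WT, from -0.4064 to -0.1011 for Isg15 and 0.0483 to 0.2508 for Usp18, between FUN025/FUN025 and WT from 0.003 to 0.0993 for Stat2, 0.0487 to 0.3035 for Oasl2, 0.054 to 0.2095 for Bst2 and 0.0809 to 0.2768 for Usp18, and between the mutant genotypes from 0.0297 to 0.2443 for Isg15, 0.0917 to 0.2194 for Oasl2 and 0.136 to 0.2761 for Bst2. Mice that share a replicate number across genotypes are separate animals and did not deviate together (mean r -0.25, -0.07 and 0.05 over all genes). With the replicate number as a block, Irf7 was 0.0209 from WT in FUN025/FUN025 eyecups and Usp18 -0.0073 from FUN025/+, 2010, 2137 and 80 genes were called in the 3 comparisons, and no call of the 8 genes changed. Among the pathway genes the block ended the calls of Batf2 (0.317, adjusted p = 0.0532) and Pias4 (0.0728) in FUN025/+ eyecups and of Ddx58 (0.0751), Ticam1 (0.0546) and Irf2bp1 (0.0549) in FUN025/FUN025 eyecups, and Samd9l was called in FUN025/+ eyecups (0.257, adjusted p = 0.0189). Under other settings Ticam1, Irf2bp1, Pias4, Trafd1 and Samd9l lost a call, with adjusted p-values of 0.0528 to 0.116, and Ddx60 in FUN025/+ eyecups (0.372 to 0.43) and Trafd1 in FUN025/FUN025 eyecups (-0.202 to -0.198) were each called under 3. The 24 genotype means in CPM moved by less than 1 SD without TMM factors. Genes with few counts, Isg15 above all, have wide intervals, and differences smaller than those intervals cannot be seen at this depth and number of mice.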
